A study of Canis lupus familiaris with 186 samples.

Results

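Interleukins are secreted proteins through which leukocytes, stromal cells and epithelia signal to each other, and each acts by joining receptor subunits on a target cell into a signalling complex. The genes described here are those of the deposited count table whose symbol starts with IL and a digit. This rule gave 85 of 37952 genes: cytokines (IL1A to IL37), receptor subunits (IL1R1 to IL31RA), and a few genes that only share the prefix or block signalling, such as IL1RN, the secreted IL-1 receptor antagonist, IL18BP, the secreted inhibitor of IL-18, and IL4I1, an amino acid oxidase of leukocytes. The rule uses the symbol and no measured value, but it was set with earlier results of these data known.

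Messenger RNA was sequenced from the primary osteosarcoma of 186 pet dogs, 93 enrolled in the trial COTC021 and 93 in COTC022. Osteosarcoma is a bone tumor whose malignant cells lay down bone matrix. In both groups the tumor was in the limb skeleton, was removed at amputation before any drug was given, and had not visibly spread, and the dogs differed in age, breed and sex. After surgery the dogs of the study were randomized to carboplatin alone or carboplatin with rapamycin. The labels give a trial for each dog and no arm, so the arms were not compared here, and 1 tumor sample was sequenced per dog. Dogs are called by their trial and a running number, which carries no order. Disease-free interval, overall survival and the 2 outcome groups of the study were not used here.

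Several receptor subunits are shared. IL2RG, the common gamma chain, serves the receptors for IL-2, IL-4, IL-7, IL-9, IL-15 and IL-21, and IL6ST, also called gp130, serves those for IL-6, IL-11 and related cytokines. In bone, IL-6 and IL-11 are known for their part in the recruitment of osteoclasts, the cells that resorb bone, and IL-34 is the alternative ligand of CSF1R, the receptor that macrophages and osteoclasts need. IL-2, IL-15, IL-18 and IL-12 are best known for their action on T cells and NK cells.

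A library held between 6587637 and 27420866 counts, with 10797172 in the median library. In 50 libraries, 18 of COTC021 and 32 of COTC022, the deposited column name had a doubled separator. The labels do not say what this marks, but these doubled-name libraries were deeper. Their median depth was 19440471 counts, and that of the remaining 136 was 9851691. At least 10 counts were found for 33 to 49 of the 85 genes in a library with a doubled name and for 22 to 49 in the others. COTC022 dog 64 held the highest value of 15 genes and COTC022 dog 32 that of 6. Dog 64 was first of 186 in the leukocyte, T cell and macrophage marker scores and last in the osteoblast score, and dog 32 was first in the neutrophil score. Results were therefore also computed without these 2 dogs. The markers of the tissue were present, in that each of the 11 osteoblast markers and each of the 12 pan-leukocyte markers passed the low-count filter. Only 5 of 10 T cell markers and 1 of 9 B and plasma cell markers (JCHAIN) passed, so the T cell score rests on 5 genes and JCHAIN alone stands for B and plasma cells. With JCHAIN, fitted by the model described below, 22 of the 34 genes that passed the filter rose and 0 fell, against 14.6% and 11% of all genes.

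The cytokine genes were mostly at the edge of detection, whereas many receptor genes were read in every tumor. Levels are given as CPM, the share of a library's counts scaled to the same total in every dog, and are not corrected for transcript length, so a level is compared here between dogs and not between genes. Of the 85 genes, 13 had at least 10 counts in every dog, and 37 (43.5%) had them in at least 93 dogs. Another 31 reached 10 counts in 1 to 92 dogs, 10 were counted but never reached 10 in any dog, and 7 had no count in any dog. The 13 genes read everywhere were IL13RA1, IL6ST, IL17RA, IL1R1, IL27RA, IL4R, IL10RB, IL10RA, IL17RC, IL1RAP, IL1RN, IL16 and IL6R. Apart from IL1RN and IL16, each of these encodes a receptor subunit. The 7 genes with no count were IL3, IL4, IL9, IL9R, IL22, IL24 and IL31, which include the type 2 helper T cell cytokine IL-4 and the itch cytokine IL-31. A count of 0 allows up to 3 counts, which is 0.455 CPM in the shallowest library and 0.109 CPM in the deepest.

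**Figure D1:**
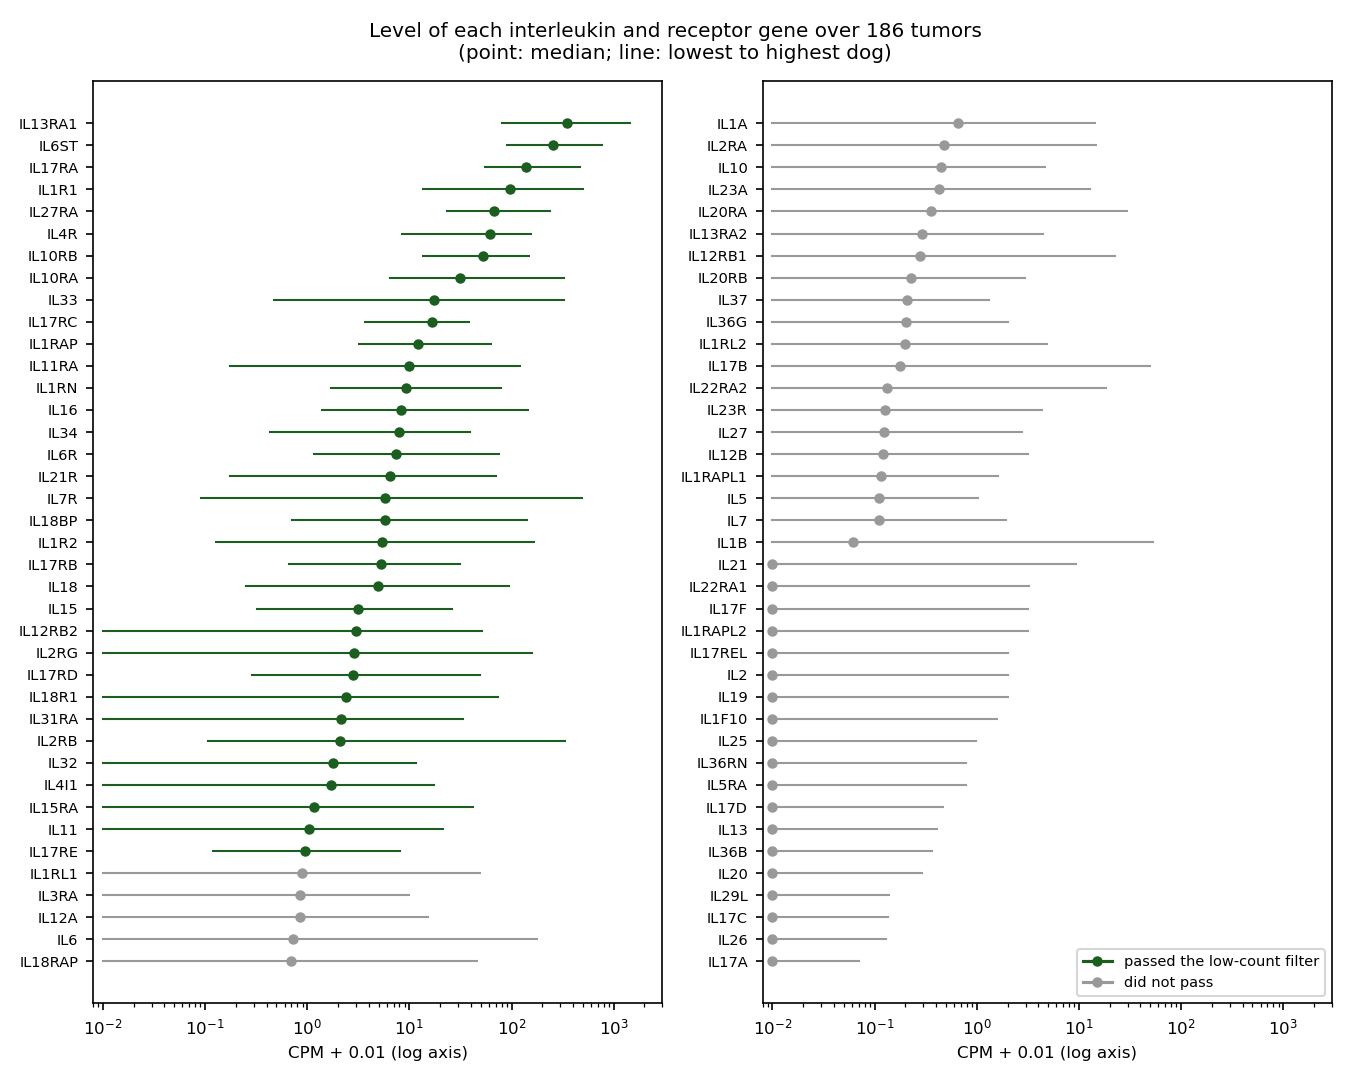
Lowest, median and highest level of each of the 78 counted genes over the 186 tumors, in CPM + 0.01 on a log axis; green genes passed the low-count filter and gray ones did not. The upper rows of the left panel, led by IL13RA1, IL6ST and IL17RA, are receptor subunits with narrow ranges, and the right panel holds genes whose lowest dog is at 0.

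Among the receptor subunits, IL13RA1, which pairs with IL4R to bind IL-13 and IL-4, ranged from 81.0 to 1453 CPM with a median of 348. IL6ST ranged from 89.4 to 760 CPM, with a median of 253. IL17RA, the shared subunit of the IL-17 receptors, ranged from 54.9 to 466 CPM around a median of 139. These subunits were read in every dog, and none of the 3 approached 0 in any tumor. IL1R1, the signalling receptor for IL-1, lay between 13.6 and 502 CPM with a median of 96.1, and IL4R between 8.52 and 155 CPM with a median of 61.0. Receptor subunits of lymphocytes spanned a far wider range from dog to dog. IL2RB, the beta chain of the IL-2 and IL-15 receptors (chr10:28371136-28389104 in build GSD_1.0), had a median of 2.08 CPM, a lowest value of 0.0957 and a highest of 337 in COTC022 dog 64. That dog held 23.8% of the IL2RB reads of all 186 dogs on the CPM scale. IL2RG (chrX:55676806-55680404) ran from 0 to 158 CPM with a median of 2.85, and the same dog was again the highest.

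For tests across dogs, each of the 13422 genes that passed the filter was fitted with limma-voom against a marker score and the trial. A score is the mean z-score of the marker genes of a cell type in a dog, scaled to SD 1. A slope is in log2 units per SD, so that a slope of 1 is a 2-fold higher level in a dog whose score is 1 SD higher. Of the 85 genes, 34 (40.0%) passed the filter, against 35.4% of all genes. The counts of genes below are over these 34 unless stated, and the errors after slopes are standard errors.

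The leukocyte score, from 12 genes such as PTPRC (CD45), was followed by most of the 34 genes. With this score 26 rose and 2 fell at an adjusted p under 0.05 (limma, Benjamini-Hochberg over all genes), where 22.8% of all genes tested rose and 28.3% fell. A slope of at least 0.5 was reached by 16 of the 34 upward and by 0 downward, against 5.18% and 1.54% of all genes. The median slope was 0.47 over the 34 genes and -0.02 over all genes. All 28 called genes kept the sign of their slope within each trial. In bulk tumor RNA, fewer cells of a type and less RNA per cell cannot be told apart.

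The 3 steepest slopes were those of IL2RB, IL2RG and IL7R, receptor chains through which IL-2, IL-15 and IL-7 act. IL2RB rose by 1.62 ± 0.08 per SD of the leukocyte score (adjusted p = 2.7e-45), and IL2RG by 1.49 ± 0.07 (adjusted p = 4.9e-50). Without dogs 64 and 32 the slope of IL2RB was 1.55. IL7R, the alpha chain of the IL-7 receptor, rose by 1.22 ± 0.09, from a median level of 5.83 CPM and a range from 0.0812 to 485 CPM. The IL7R value of 485 CPM came from COTC021 dog 33, which held 20.6% of the sum over dogs, and the next dog had 93.9 CPM. IL15RA, which presents IL-15 to neighbouring cells, ranged from 0 to 42.2 CPM with a median of 1.15 and rose by 1.04 ± 0.06, and its ligand IL15 by 0.69 ± 0.05. IL21R, the receptor for the follicular helper T cell cytokine IL-21, rose by 0.90 ± 0.08. IL4R, which serves IL-4 and IL-13, had a smaller slope of 0.51 ± 0.04 that was nonetheless called (adjusted p = 1.9e-27).

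Genes of the IL-1 and IL-18 branch rose together with their own inhibitors. IL18, an inflammasome product of myeloid cells, had levels from 0.244 to 95.1 CPM with a median of 4.95 and a slope of 1.11 ± 0.05 (adjusted p = 3.0e-55). Its secreted inhibitor IL18BP, between 0.707 and 142 CPM with a median of 5.76, rose by 0.81 ± 0.07. IL1RN, the receptor antagonist, rose by 0.80 ± 0.05, and IL1R2, the decoy receptor for IL-1, by 0.64 ± 0.09. The receptor subunits through which these cytokines signal had lower slopes, with 0.30 ± 0.05 for IL1RAP, the accessory chain, and 0.19 ± 0.07 for IL1R1. IL18R1, the ligand-binding subunit for IL-18, had a slope of 0.29 ± 0.12 (adjusted p = 0.037). This last call was lost with edgeR's quasi-likelihood test, where the slope of IL18R1 was -0.02 (adjusted p = 0.90), and with DESeq2, where it was -0.01. It was also lost without dogs 64 and 32, at 0.18 (adjusted p = 0.26).

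Further leukocyte receptors and cytokines followed. IL31RA, the subunit that binds IL-31, ranged from 0 to 33.5 CPM with a median of 2.15 and rose by 0.89 ± 0.08, although no count of IL31 itself was found. IL10RA, the ligand-binding chain for the anti-inflammatory cytokine IL-10, rose by 0.81 ± 0.05, and IL10RB, the chain that it shares with other receptors, by 0.41 ± 0.04. IL6R rose by 0.71 ± 0.05, IL16, a chemoattractant for CD4+ cells, by 0.60 ± 0.07, and IL4I1 by 0.58 ± 0.06. The span of IL4I1 overlaps the protein-coding genes NUP62, by 24962 bases, and ATF5, by 344, and 6.45% of its expected counts were not whole. Smaller slopes were called for IL12RB2 at 0.49 ± 0.13, IL33 at 0.45 ± 0.10, IL34 at 0.40 ± 0.07, IL32 at 0.40 ± 0.11, IL13RA1 at 0.19 ± 0.05 and IL17RA at 0.14 ± 0.03. Within the doubled-name libraries the slopes of IL33 (0.28, adjusted p = 0.31), IL34 (0.08, adjusted p = 0.68) and IL32 (0.15, adjusted p = 0.63) were not called. IL12RB2 was not called with edgeR (0.26, adjusted p = 0.10) or within COTC021 (0.34, adjusted p = 0.21), IL32 not within COTC022 (0.32, adjusted p = 0.063) and IL13RA1 not within COTC021 (0.13, adjusted p = 0.21).

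The other 8 of the 34 genes fell or were not called. IL17RE, the receptor for epithelial IL-17C, fell by 0.30 ± 0.07 on the log2 scale (adjusted p = 0.00011), and IL17RD, also known as SEF, fell by 0.19 ± 0.08 (adjusted p = 0.044). IL17RD was called in neither trial alone, nor with edgeR, where its slope was -0.15 (adjusted p = 0.12). The fall of IL17RE was not called within the 50 doubled-name libraries, where its slope was -0.14 (adjusted p = 0.39). IL17RE and IL17RC lie on chr20 (8424611-8446250 and 8412789-8426541), share 1931 bases, and had 30.1% and 26.3% of their expected counts not whole, so that reads were divided between genes in counting. IL6ST had a slope of -0.00 ± 0.04, IL11 of -0.07 ± 0.11, IL11RA of -0.02 ± 0.11, IL17RB of 0.10 ± 0.07, IL17RC of -0.08 ± 0.04 and IL27RA of 0.09 ± 0.05. Of these 6 genes none was called, with adjusted p from 0.083 to 0.95.

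**Figure D2:**
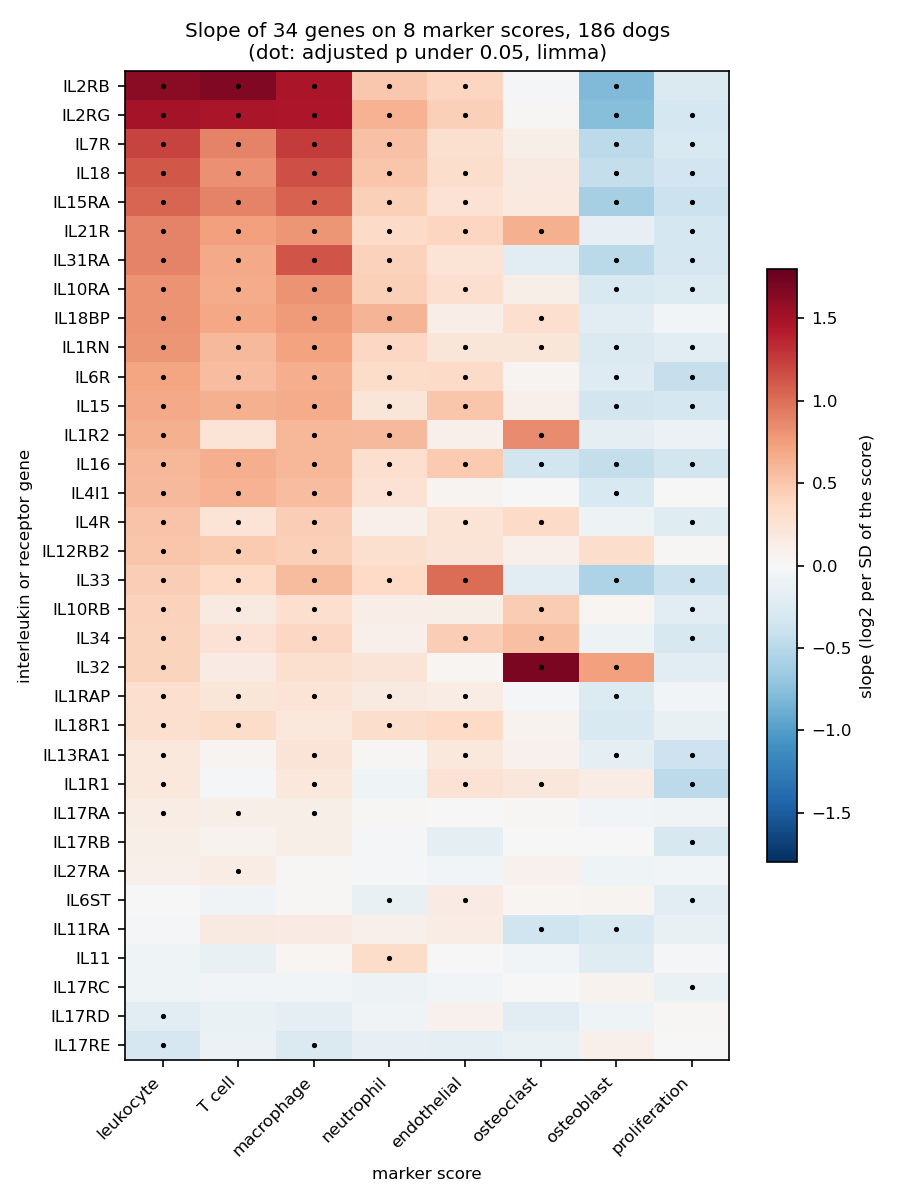
Slope of each of the 34 genes (rows, ordered by the leukocyte slope) on 8 marker scores (columns), in log2 per SD over 186 dogs; red is a rise, blue a fall, and a dot marks an adjusted p under 0.05. IL2RB and IL2RG head the leukocyte, T cell and macrophage columns, while IL32 has its darkest cell in the osteoclast column and IL33 in the endothelial column.

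Taken singly, the T cell score was followed upward by 23 of the 34 genes and downward by 0, against 16% and 14.2% of all genes, and the macrophage score by 24 and 1, against 21.4% and 25.7%. To ask which of these leukocytes a gene followed, T cell, macrophage and osteoblast scores were entered in 1 joint fit. With the other scores held fixed, 14 of the 34 genes rose and 2 fell with the T cell score, where 7.41% and 6.36% of all genes did. With the macrophage score 21 rose and 1 fell, against 18.4% and 19.2% of all genes. Both scores were called upward for 10 genes: IL10RA, IL15, IL15RA, IL16, IL18, IL18BP, IL1RN, IL21R, IL2RG and IL6R. Combinations of calls on the 2 scores, here and below, were not counted over all genes.

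IL2RB had a slope of 1.59 ± 0.06 on the T cell score and of 0.07 ± 0.07 on the macrophage score (adjusted p = 0.45). IL2RG had 1.18 ± 0.06 and 0.41 ± 0.07, both called. IL4I1 (0.51 ± 0.08), IL12RB2, the IL-12 receptor subunit of type 1 helper T cells and NK cells (0.53 ± 0.18), and IL27RA (0.19 ± 0.06) also rose with the T cell score without a call on the macrophage score. On the other side, IL31RA (chr2:42279703-42364870) had a slope of 1.14 ± 0.10 on the macrophage score and of -0.10 ± 0.09 on the T cell score (adjusted p = 0.52). IL7R (chr4:73540714-73577774), a gene usually named for its role in T cells, had 1.05 ± 0.13 on the macrophage score and 0.22 ± 0.11 on the T cell score (adjusted p = 0.19). IL18 had 0.96 ± 0.07 on the macrophage score and 0.20 ± 0.06 on the T cell score, both called. Altogether 10 genes rose with the macrophage score without a call on the T cell score, among them IL1R2 at 0.73 ± 0.14 and IL4R at 0.50 ± 0.06. IL13RA1 rose with the macrophage score by 0.35 ± 0.06 and fell with the T cell score by 0.23 ± 0.07. Over 8 settings of this fit, the macrophage slope of IL7R lay between 1.01 and 1.25, and that of IL31RA between 0.83 and 1.21. Within COTC021 the count of genes rising with the T cell score was 6, not 14, and over all 13417 genes it was 425, not 994. The T cell and macrophage scores had r = 0.66 across the dogs, and the difference between the 2 slopes of a gene was not tested.

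**Figure D3:**
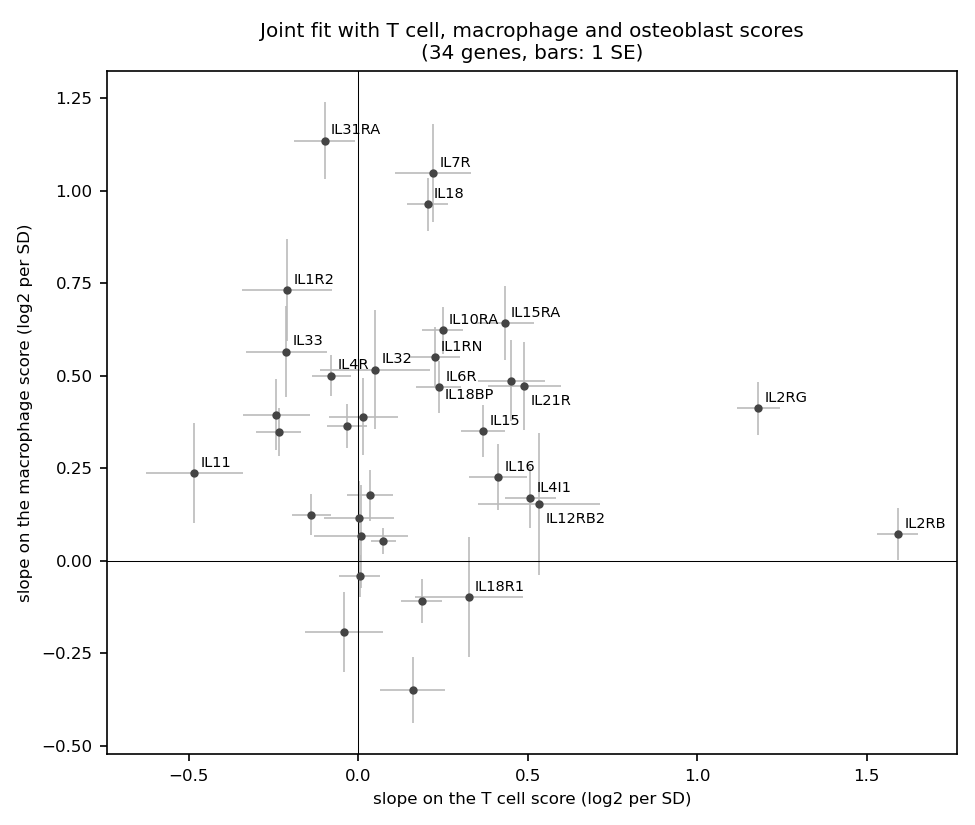
Slopes of the 34 genes on the T cell score (x axis) and the macrophage score (y axis), both in log2 per SD, from the joint fit that also holds the osteoblast score and the trial; bars are 1 standard error. IL2RB and IL2RG lie far to the right, and IL31RA, IL7R and IL18 lie at the top, close to the zero line of the T cell score.

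With the osteoblast score, which stands for the lineage of the tumor cells, the picture was largely of genes that fell. Of the 34 genes, 16 fell and 1 rose, where 17.8% and 16.1% of all genes did, and 15 of the 16 had risen with the leukocyte score. With that score 26 of the 34 had risen in any case, and the overlap was not counted over all genes. The largest falls were those of IL2RB, by 0.80 ± 0.11 on the log2 scale, IL2RG, by 0.77 ± 0.10, and IL15RA, by 0.60 ± 0.09. IL33 fell by 0.56 ± 0.09, IL31RA by 0.49 ± 0.09, IL7R by 0.47 ± 0.11, IL18 by 0.43 ± 0.09 and IL16 by 0.43 ± 0.07. Falls between 0.16 and 0.33 were called for IL15, IL10RA, IL4I1, IL1RN, IL1RAP, IL6R and IL13RA1. The gene that did not rise with leukocytes was IL11RA, the IL-11 receptor, which fell by 0.28 ± 0.10 (adjusted p = 0.020). It ranged from 0.164 to 121 CPM with a median of 9.89, and 2 protein-coding genes overlap its span. The leukocyte and osteoblast scores had r = -0.26 across the 186 dogs, and within the 136 libraries without the doubled name 9 genes fell in place of 16. Over all 13411 genes 1678 fell there in place of 2382. The osteoblast slope of IL2RB was -0.40 there, -1.31 within the doubled-name libraries and -0.54 without dogs 64 and 32, and called each time.

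The single gene that rose with the osteoblast score was IL32, at 0.73 ± 0.14 (adjusted p = 6.9e-06). IL-32 is a cytokine of lymphocytes and stromal cells without a mouse counterpart. With T cell and macrophage scores in the fit, 3 genes rose and 5 fell with the osteoblast score, against 13.7% and 13.8% of all genes. IL32 had an osteoblast slope of 0.86 ± 0.14, IL12RB2 one of 0.45 ± 0.15 and IL10RB one of 0.12 ± 0.05. IL11, a stromal cytokine of the IL-6 family, fell by 0.41 ± 0.11 with the osteoblast score in that fit and by 0.48 ± 0.14 with the T cell score. IL11 was itself sparse, with levels from 0 to 21.4 CPM and a median of 1.02.

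IL32 followed the osteoclast score more steeply. IL32 (chr6:38565117-38568798) had no count in 13 dogs, a median of 1.77 CPM and a highest value of 11.7 CPM. On the osteoclast score, built from ACP5, CTSK, MMP9, OCSTAMP, DCSTAMP and ATP6V0D2, its slope was 1.70 ± 0.08 (adjusted p = 4.6e-48). The 13 dogs without a count, 9 of COTC021 and 4 of COTC022, were all among the 29 dogs with the lowest osteoclast score. The slope lay between 1.56 and 1.75 in 8 settings, among them each trial, each kind of library and the fit without dogs 64 and 32. In a fit with 9 scores at once, the osteoclast slope of IL32 was 1.70 ± 0.09 and its osteoblast slope 0.09 ± 0.09 (adjusted p = 0.49). The osteoblast and osteoclast scores had r = 0.43 across the dogs.

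Of the 34 genes, 9 rose and 2 fell with the osteoclast score, against 15% and 16.7% of all genes. With edgeR's quasi-likelihood test 7 rose and 7 fell, against 12% and 24.4%, and with 9 scores in the limma fit 8 rose and 3 fell, against 12.5% and 14%. After IL32 came IL1R2 at 0.86 ± 0.11, from levels between 0.117 and 167 CPM, then IL21R at 0.64 ± 0.11, IL34 at 0.54 ± 0.08, IL10RB at 0.46 ± 0.04 and IL4R at 0.35 ± 0.05. IL16 (0.33 ± 0.07) and IL11RA (0.36 ± 0.10) had slopes of that size with a negative sign. IL34 had a median of 7.91 CPM and a range from 0.419 to 39.6. Within the 50 doubled-name libraries IL32 was the only one of the 34 called, where 493 of all 13416 genes rose and 302 fell. The slope of IL1R2 there was 0.70 (adjusted p = 0.053) and that of IL34 was 0.34 (adjusted p = 0.27).

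IL33 followed the endothelial score most closely. This alarmin of the IL-1 family, stored in the nuclei of endothelial and other barrier cells, ranged from 0.464 to 326 CPM with a median of 17.4 (chr11:27281817-27318668). It rose by 1.01 ± 0.08 with the endothelial score of 9 genes such as PECAM1 and CDH5 (adjusted p = 4.6e-24), and by 0.74 ± 0.08 when 9 scores were fitted at once. The slope was 0.73 with edgeR's quasi-likelihood test and 0.91 and 1.10 within the trials. With the endothelial score 18 of the 34 genes rose and 0 fell, against 19.5% and 19.7% of all genes, and IL33 alone reached a slope of 0.5. IL15 at 0.49 ± 0.06, IL16 at 0.47 ± 0.08 and IL34 at 0.45 ± 0.07 came next. With 9 scores in the fit 6 genes rose and 1 fell, against 8.06% and 4.3% of all genes, and those that rose were IL33, IL15, IL16, IL34, IL10RA and IL18R1 (0.39 ± 0.13). The single-score slope of IL18R1 was 0.37 ± 0.12, but 0.04 (adjusted p = 0.90) within COTC021 and 0.10 (adjusted p = 0.56) with edgeR. Within COTC021 and within the doubled-name libraries 6 genes were called in place of 18, each of them rising. Over all 13413 genes 1214 and 1058 rose there in place of 2618.

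**Figure D4:**
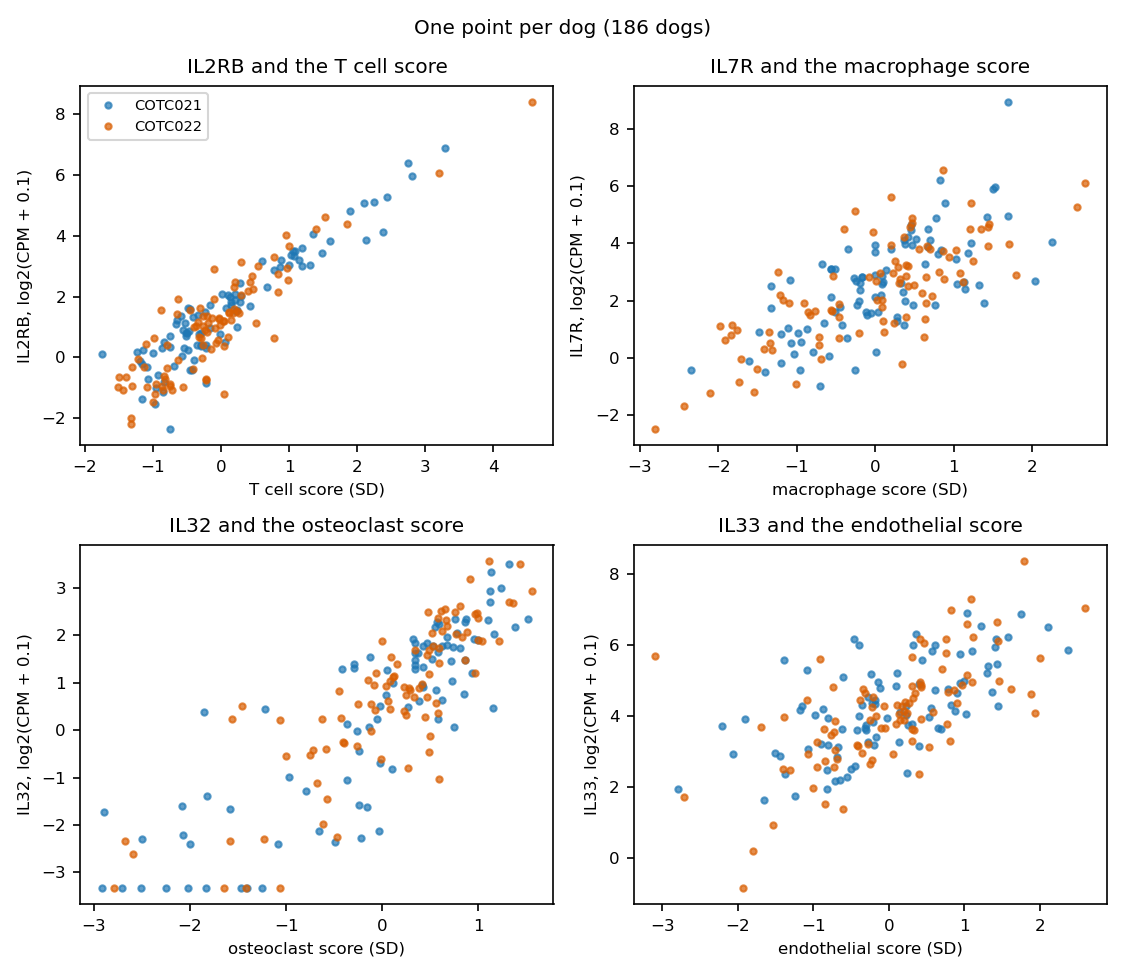
Level of 4 genes, as log2(CPM + 0.1), against the marker score named in each panel, with 1 point per dog (COTC021 blue, COTC022 orange). Both trials lie along the same band in each panel, the dog at the upper right of the IL2RB panel is COTC022 dog 64, and the row of points at the bottom of the IL32 panel holds the dogs with no count of that gene.

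The proliferation score, from 8 cell cycle genes such as MKI67, was followed downward by 20 of the 34 genes and upward by 0, against 29.4% and 24.2% of all genes, with the largest falls in IL1R1, by 0.48 ± 0.07 on the log2 scale, IL6R, by 0.42 ± 0.06, and IL15RA, by 0.39 ± 0.10. Within each trial 13 genes fell. Of all 13414 genes 2973 fell within COTC021 and 2342 within COTC022, in place of 3946. With 9 scores in the fit 9 fell and 1, IL4I1, rose, against 22% and 18.1% of all genes. The proliferation score had r = -0.28 with the leukocyte score. IL6ST, whose leukocyte slope was not called, fell by 0.21 ± 0.04 (adjusted p = 3.2e-06). With the neutrophil score, which rests on S100A8, S100A9, S100A12, CSF3R and MPO, 19 genes rose and 1 fell, against 9.32% and 7.16%. The steepest of these were IL2RG (0.63 ± 0.10), IL18BP (0.61 ± 0.08) and IL1R2 (0.58 ± 0.09). Within COTC021 and within the doubled-name libraries the neutrophil calls dropped to 4 and 3. Over all 13417 genes 1250 rose and 960 fell, but 231 and 49 within COTC021 and 174 and 33 within the doubled-name libraries. With 9 scores in the fit 4 genes rose (IL11, IL1R2, IL18BP and IL10RA) and 0 fell, against 1.59% and 0.932% of all genes.

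By the size of the moderated t statistic, 13 of the 34 genes followed the leukocyte score most closely, all upward but IL17RE (-0.30). The T cell score was closest for 5, the osteoclast score for 6 (4 upward) and the proliferation score for 5 (each with a negative slope). The endothelial score was closest for 2, and the macrophage, neutrophil and adipocyte scores for 1 each. The gene closest to the adipocyte score, IL27RA, had a negative slope (-0.16). Closest scores were not counted over all genes, so no share is given beside these numbers. The 5 of the T cell score were IL2RB, IL2RG, IL4I1, IL16 and IL12RB2. None of the 34 was closest to the osteoblast score. Of the 6 slopes on the osteoclast score, that of IL17RD (-0.19, adjusted p = 0.055) was not called.

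The other 51 genes did not pass the filter, and among them are most of the cytokines by which the receptors above are engaged. Of these 51 genes, 25 had at least 1 count in at least 93 dogs and were read from edgeR's quasi-likelihood fit without the filter, an alternative that was added after the data had been seen. With the leukocyte score 13 of the 25 rose and 3 fell, where 15.9% and 21.7% of all 30029 genes in that fit did, and the counts were again 13 and 3 without dogs 64 and 32.

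IL6, the acute-phase cytokine, had a median of 0.717 CPM, and its highest dogs were COTC021 dog 9 with 178 CPM, which held 19.1% of the sum over dogs, and COTC022 dog 75 with 99.4 CPM. IL6 rose by 1.10 with the leukocyte score (adjusted p = 0.00033), by 1.52 with the macrophage score (adjusted p = 1.8e-10) and by 0.82 with the endothelial score (adjusted p = 1.5e-05) in the edgeR fit, and fell by 1.11 on the log2 scale with the osteoblast score. Its slope on the T cell score was 0.26 and was not called. Dog 9 ranked 77 of 186 in the leukocyte score, 23 in the macrophage score and 8 in the endothelial score.

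IL1B, the secreted product of the NLRP3 inflammasome pathway, was read in 97 dogs and reached 10 counts in 14. Its median was 0.0510 CPM, with 52.9 CPM in COTC022 dog 32, 35.4 CPM in COTC022 dog 17 and 3.82 CPM in the third dog. Dog 32 alone held 41.0% of the IL1B sum, and it was also the highest dog for IL1A, IL1R2, IL18BP, IL18RAP and IL22RA2. IL1B rose by 1.75 with the leukocyte score (adjusted p = 4.8e-11), by 1.68 with the macrophage score (adjusted p = 6.9e-09) and by 1.62 with the neutrophil score (adjusted p = 2.1e-24). Without dogs 64 and 32 the leukocyte slope was 1.41 and the neutrophil slope 1.48. COTC022 dog 17 stayed in that fit, and no fit without it was run. The top 5 dogs held 75.9% of the IL1B sum, so a few dogs could weigh heavily in these slopes. A long noncoding RNA gene overlaps IL1B and IL1A in the annotation, over the whole 4519 bases of IL1B, so reads could have been divided between these genes in counting. IL1A had a median of 0.641 CPM and a highest value of 14.3 CPM, and rose by 0.60 with the leukocyte score (adjusted p = 2.6e-07).

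Of the cytokines of T cell help, IL12B, the p40 chain of IL-12 and IL-23, had a median of 0.110 CPM and a maximum of 3.20, and rose by 1.05 with the leukocyte score (adjusted p = 3.4e-09). IL12A, the p35 chain, had a median of 0.833 CPM and fell by 0.28 on the log2 scale (adjusted p = 0.0048). The partner chains of IL-12 thus had slopes of opposite sign. IL27, which pairs with EBI3, rose by 1.24, IL10 by 0.77 and IL7 by 0.74, all called, and the span of IL7 overlaps that of ZC2HC1A. IL23A had a median of 0.418 CPM and a slope of 0.15 that was not called, and its highest dog, COTC021 dog 36 with 12.9 CPM, stood far above the second at 1.62. The sparse receptor subunits IL12RB1 (1.31), IL18RAP (1.28), IL2RA (1.02) and IL23R (0.95) also rose with the leukocyte score. IL3RA, the IL-3 receptor chain, had its largest slope with the endothelial score, at 1.08 (adjusted p = 3.8e-18). IL13RA2, the decoy receptor for IL-13, had a median of 0.283 CPM and a maximum of 4.46. Its slope on the leukocyte score was 0.20 and was not called, and it rose by 0.59 with the endothelial score and fell by 0.65 with the osteoblast score and by 0.52 with the osteoclast score on the log2 scale. IL5, the eosinophil growth factor, was read in 118 dogs but at 10 counts in only 3, and overlaps RAD50 over 1800 bases. IL17B and IL20RA fell by 0.89 and 0.79 on the log2 scale with the leukocyte score.

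The remaining 26 genes were seen in fewer than 93 dogs or not at all. IL2, the T cell growth factor, was read in 14 dogs, with 2.02 CPM in COTC022 dog 64 and 0.363 CPM in the next dog. IL21 was read in 46 dogs, with 9.43 CPM in the same dog and 5.40 CPM in COTC021 dog 36. IL17A had a single count in each of 4 dogs, and IL17F reached 3.18 CPM in COTC022 dog 58, which held 80.4% of its sum. IL13 was read in 68 dogs, at no more than 5 counts, and IL4 in none. For these genes no slope is given, since a few dogs decide it.

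**Figure D5:**
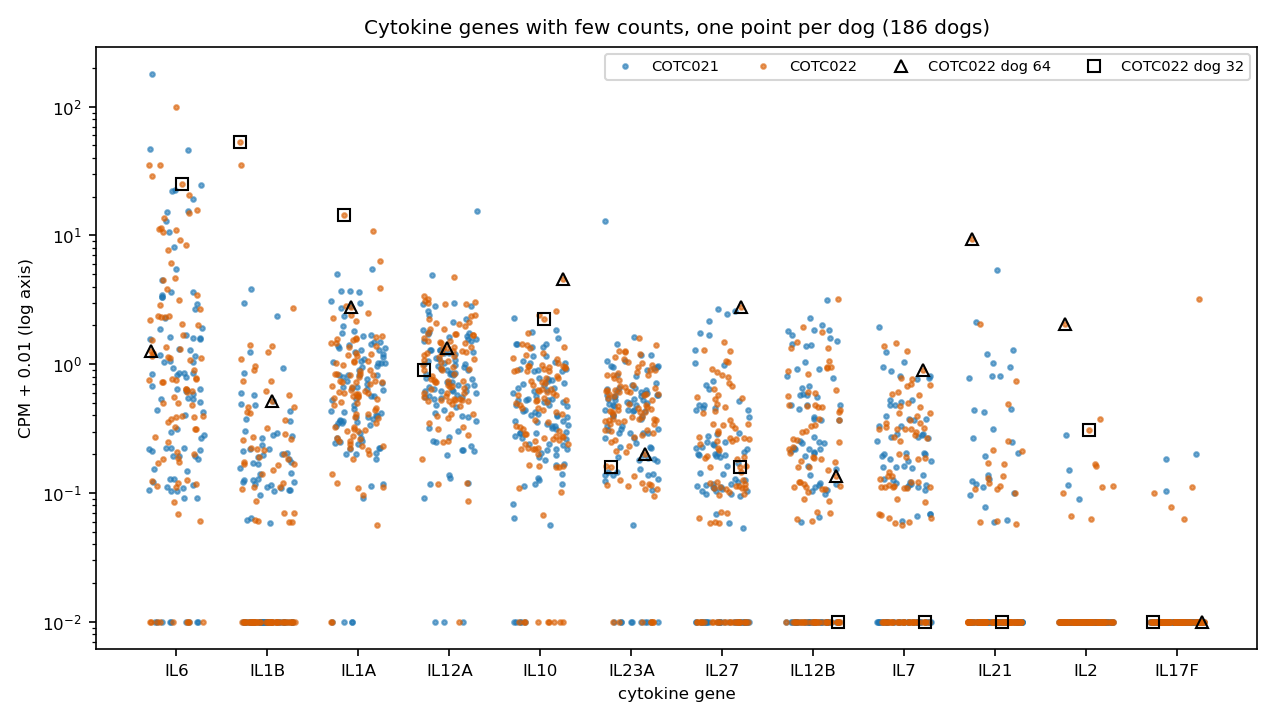
Level of 12 sparse cytokine genes in each dog, in CPM + 0.01 on a log axis (COTC021 blue, COTC022 orange, dogs without a count at the bottom); the triangle marks COTC022 dog 64 and the square COTC022 dog 32. The square heads IL1B and IL1A, the triangle heads IL10, IL27, IL21 and IL2, and neither heads IL6.

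GS-1 is a published gene signature by which the study grouped the dogs. Its score was computed here from 24 of its genes without IL31RA, which is a member of both lists. CD53 and IKZF1 are in the leukocyte score and C1QB and VSIG4 in the macrophage score as well. The leukocyte and GS-1 scores had r = 0.93, so that the slopes largely repeat those above. With the GS-1 score 24 of the 34 genes rose and 1 fell, against 22.6% and 26.9% of all genes. The slopes were 1.68 ± 0.07 for IL2RB, 1.55 ± 0.06 for IL2RG, 1.21 ± 0.08 for IL7R, 1.13 ± 0.04 for IL18 and 1.10 ± 0.06 for IL15RA, and IL17RE fell by 0.25 ± 0.07. IL31RA, left out of the score, rose with it by 1.00 ± 0.07 (adjusted p = 1.0e-31).

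Between the trials none of the 34 genes was called, where 0.0149% of all genes were (limma, 2 of 13422). An unadjusted p under 0.05 in limma was found for 3 of the 34 and for 1332 of all 13422 genes. With edgeR's quasi-likelihood test 129 of these genes (0.961%) were called, and again 0 of the 34. DESeq2 gave an adjusted p for 13023 genes, among them 30 of the 34, and called 71 genes but none of these 30. The largest fitted difference was that of IL12RB2, with -0.69 ± 0.30 in COTC022 against COTC021 (adjusted p = 0.42). Its median was 3.52 CPM in COTC021, with a range from 0 to 49.0, and 2.22 CPM in COTC022, with a range from 0 to 50.9, so the trials overlapped throughout. IL2RB had a median of 2.41 CPM in COTC021 and 1.94 CPM in COTC022, and IL32 of 1.84 and 1.77 CPM. Without the filter, edgeR called 5 of 78 counted genes, against 4.64% of all genes. These were IL17F, IL2, IL1B, IL22RA2 and IL1RAPL2, and in each a single dog held between 21.8% and 80.4% of the sum. The same fit without dogs 64 and 32 called IL17F, IL1B and IL1RAPL2 again, no longer IL2 and IL22RA2, and also IL21, IL2RB (-0.96, adjusted p = 0.027) and IL2RG (-0.89, adjusted p = 0.022), lower in COTC022. Of all 30041 genes in that fit, 781 were called higher and 714 lower in COTC022. Both dogs left out are of COTC022 and were picked because they held the highest value of the most genes. Dog 64 was the highest dog for IL21, IL2RB and IL2RG, so leaving it out lowered COTC022 alone. The calls of these genes may follow from that choice and are not read as a difference between the trials. The T cell score differed by -0.24 SD between the trials (p = 0.11, two-sided permutation test, 100000 resamples).

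The slopes on the leukocyte score were also compared between the trials and between the kinds of library name, by an interaction term. None of the 34 genes was called in either test, where 1 of 13410 genes was called for the trial, which is 0% rising and 0.00746% falling, and 36 for the library name, 0.157% rising and 0.112% falling. At an unadjusted p under 0.05, 4 of the 34 genes (406 of all) differed between the trials and 6 (1485 of all) between the kinds of library. The nearest to a call was IL34, whose slope was lower by 0.54 in the doubled-name libraries (adjusted p = 0.058). It was 0.08 within these and 0.64 within the others.

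Cytokine and receptor partners were compared across the 186 dogs as log2(CPM + 1). Of 16 pairs listed, 8 had both genes at 10 counts or more in at least 93 dogs, and p-values are adjusted over these 8. IL2RB and IL2RG had Pearson r = 0.893 and Spearman rho = 0.80, and the residuals on the leukocyte score had r = 0.758 (permutation p = 1e-05 for each, the smallest that 100000 resamples can give). IL34 and its receptor CSF1R had r = 0.543, rho = 0.524 and a residual r of 0.309 (adjusted permutation p = 0.00016). CSF1R is itself a gene of the macrophage score. IL4R and IL13RA1, which form the type II IL-4 receptor, had r = 0.392, rho = 0.392 and a residual r of 0.281. IL33 and its receptor IL1RL1 had r = 0.277, rho = 0.349 and a residual r of 0.273 (adjusted permutation p = 0.00042).

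The correlation of 2 further pairs was smaller in the residuals. IL15 and IL15RA had r = 0.522 and rho = 0.493, with a residual r of 0.121 (adjusted permutation p = 0.11). IL18 and IL18BP had r = 0.451 and rho = 0.420, and a residual r of -0.152 (adjusted permutation p = 0.061). IL1R1 and IL1RAP had r = 0.151 (adjusted permutation p = 0.045) and rho = 0.132, and the call was lost without the 2 farthest dogs (r = 0.112) and within COTC021 (r = 0.049). IL11 and IL11RA had r = 0.134 (adjusted permutation p = 0.068) and rho = 0.188 (adjusted permutation p = 0.012). Without the 2 farthest dogs, r of IL2RB and IL2RG was 0.874. It was 0.934 within COTC021, 0.841 within COTC022, and 0.944 and 0.873 within the 2 kinds of library name. For IL34 and CSF1R it was 0.529 without the 2 farthest dogs, 0.551 and 0.537 within the trials, and 0.344 within the doubled-name libraries. Within each trial r kept its sign in all 8 pairs.

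Genes that pass on interleukin signals were taken from a list of 36 that the symbol rule does not cover, of which 34 passed the filter, and TSLP and SOCS1 did not. The list was drawn up with earlier results of these data known. With the leukocyte score 26 rose, 0 fell and 8 were not called, where 22.8% of all genes rose and 28.3% fell. The steepest were CSF2RA, a GM-CSF receptor chain, at 1.10 ± 0.06, EBI3, the partner of IL-27, at 1.07 ± 0.05, and JAK3, the kinase bound to IL2RG, at 1.01 ± 0.05. At the other end stood LIFR (-0.16 ± 0.11), the receptor for leukemia inhibitory factor, IRAK1 (-0.09 ± 0.04) and SOCS2 (-0.02 ± 0.06), none of them called. With the osteoblast score 2 rose and 18 fell, against 16.1% and 17.8% of all genes, and the 2 that rose were LIFR, at 0.94 ± 0.10 (adjusted p = 1.5e-14), and SOCS2, at 0.32 ± 0.06. With the osteoclast score 9 rose and 0 fell, against 15% and 16.7%, led by LIF at 1.02 ± 0.09, and between the trials none was called.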

How the data were processed

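The authors trimmed the reads with Cutadapt, aligned them with STAR 2.7.0f to canine build GSD_1.0 and quantified genes with RSEM 1.3.1, and deposited expected counts that were not normalized. An expected count divides a read that maps to several genes, and 3.07% of values were not whole, so counts were rounded. Libraries were stranded mRNA. Of 198 columns, 186 matched sample titles, and 12 were not used here. Intervals and floors cover counting error only.

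Low counts were removed in R 4.3.3 by filterByExpr of edgeR 4.0.16, with large.n at 5, min.prop at 0.5 and min.count at 10. TMM factors and the voom weights of limma 3.58.1 preceded the linear fits, with Benjamini-Hochberg adjustment over all genes and calls at 0.05. A fit leaves the genes of its own score out of its counts. Alternatives used edgeR's quasi-likelihood test, DESeq2 1.42.0, other size factors, no filter, and subsets of dogs. On simulated counts for 13422 genes, limma recovered 177 of 200 genes given a leukocyte slope of 0.5 and wrongly called 9, and 136 of 200 given 0.25. CPM in the text use the library total without TMM factors. Correlations used log2(CPM + 1), and scores, permutation tests and figures used Python 3.11.15 with numpy 2.4.6, pandas 2.3.3 and matplotlib 3.10.9. No 2 libraries were alike enough to be 1 library.

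Groups are the trials in the sample titles. The outcome groups and survival times are given with the paper and were not used here. The genes, marker lists, pairs and pathway list were chosen with earlier results of these data known. Named with full statistics were the 10 called genes with the largest and the 10 with the smallest slope on the leukocyte and osteoblast scores, any gene called between the trials, the genes of the pairs, a list of 20 cytokines and receptors whatever their values, and the 3 pathway genes at each end, and further genes were named after their values were seen. Coordinates are those of RefSeq for GSD_1.0.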

Additional observations from a re-analysis of the deposited data

How the results depend on the processing

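Among counts of genes and correlations, 179 of 239 results under an alternative kept their side of the threshold or lay within 1.5 times the reported count, and of 1257 refits of the slopes of single genes that were called as reported 1079 kept sign and call, 172 kept only their sign and 6 changed sign. The 6 refits that changed sign were those of the leukocyte slope of IL18R1, at -0.0141 with DESeq2, -0.0158 with edgeR, -0.0139 with edgeR without the filter and -0.24 when dogs 64 and 32 were also left out, and of the endothelial slope of IL15RA, at -0.0267 with edgeR and -0.0191 without the filter. The cause was not tested. Without the filter 78 genes were tested, among them genes with counts in a few dogs. The leukocyte score was then followed upward by 42 genes in limma, in edgeR and in edgeR without dogs 64 and 32, and downward by 4, 8 and 7. Of all 30029 genes 4401, 4778 and 4472 rose in these fits and 4420, 6510 and 6228 fell. The osteoblast score had 2 rising genes in each of these fits and 39, 38 and 31 falling, and GS-1 had 39 rising and 4 falling. Of all 30030 genes 2960, 2958 and 2616 rose with the osteoblast score and 5708, 4589 and 4040 fell. With the GS-1 score, 4364 of 30017 genes rose and 4116 fell. Between the trials 5 genes differed in edgeR, or 6 without the 2 dogs, which are both of COTC022. Of all 30041 genes 770 were higher and 625 lower in COTC022, or 781 and 714 without the 2 dogs. In the joint fit without the filter 4 genes fell with the T cell score, 2 with the macrophage score and 17 with the osteoblast score. Over all genes 935 of 30036, 2533 of 30031 and 4738 of 30030 fell with these scores. In edgeR without the filter 25 genes were called with the osteoclast score (9 rising and 16 falling). The endothelial score had 30 (24 and 6), the T cell score 36 (35 and 1), the macrophage score 44 (40 and 4) and the neutrophil score 33 (31 and 2). Of 30035 genes 2743 rose and 4496 fell with the osteoclast score, and of 30032 genes, 3128 and 4314 with the endothelial score. Of 30036 genes 3421 rose and 2778 fell with the T cell score and 2894 and 1659 with the neutrophil score. Of 30031 genes 4530 rose and 5672 fell with the macrophage score.

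With the filter, 1 gene fell with the leukocyte score in DESeq2, in edgeR, with library totals alone, within COTC021 and within the other libraries, and 0 within the doubled-name libraries, where 0 also fell with GS-1. Over all 13410 genes 4467, 4449, 3220, 1982, 2808 and 1571 fell with the leukocyte score in these fits, in that order. With GS-1, 1433 of 13398 genes fell within the doubled-name libraries. With the osteoblast score 2 rose within COTC022 and 9 fell within the other libraries. Of all 13411 genes 1202 rose within COTC022 and 1678 fell within the other libraries. In the joint fit, 6 genes rose with the T cell score within COTC021, and 1 fell within COTC021, within COTC022 and without dogs 64 and 32. Over all 13417 genes 425 rose within COTC021, and 239, 409 and 525 fell in the same 3 settings. With the macrophage score of the joint fit 3 of the 34 fell in edgeR and 2 within COTC022, where 3264 and 1256 of all 13412 genes fell. With its osteoblast score 1 of the 34 rose within each trial, where 873 and 1106 of all 13411 genes rose. In edgeR 9 of the 34 fell with it, 2 within COTC021, 3 within COTC022 and 8 without dogs 64 and 32. Over all 13411 genes 2336, 796, 952 and 1775 fell in these settings, in that order. Within the doubled-name libraries 1 gene was called with the osteoclast, 6 with the endothelial and 3 with the neutrophil score, within COTC021 6 with the endothelial and 4 with the neutrophil score, and 13 with the proliferation score within COTC021, within COTC022 and within the other libraries. Of all 13414 genes 3310 fell with the proliferation score within the other libraries. Subsets hold fewer dogs. For each score the counts over all genes were also lower within a trial or a kind of library. With the leukocyte score, 2110 genes rose and 1982 fell within COTC021, in place of 3063 and 3796.

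The correlation of IL1R1 and IL1RAP lost its call with a pseudocount of 5 (r = 0.134), without the 2 farthest dogs (0.112), within COTC021 (0.049) and within the doubled-name libraries (0.022). That of IL11 and IL11RA gained one with a pseudocount of 0.1 (0.157), without the 2 farthest dogs (0.153) and within COTC021 (0.217).

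No paired analysis was possible because the replicate numbers are running numbers of different dogs. Bulk RNA gives no cell of origin, marker scores are not cell counts, 51 genes had too few counts for the filter, and a call missed within a subset of dogs does not show that slopes differed.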
